A study of Mus musculus with 4 samples.

Results

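Expression of 9 ion transport genes of the stria vascularis was examined in cochlear RNA after depletion of outer hair cells (OHCs) by diphtheria toxin (DT). The genes were *Kcnq1*, *Kcne1*, *Slc12a2*, *Atp1b2*, *Bsnd*, *Esrrb*, *Kcnj10*, *Cldn11* and *Slc26a4*. They were chosen by name, and every probe on the array that carries 1 of these names was used, which gave 11 probes of 39429 and 9 of 30028 gene names. The series held 4 Agilent arrays with 1 array for each group, which were wild-type and *Prestin*-*hDTR* mice, each with and without DT. *Prestin*-*hDTR* is the line that the labels call OHC-TRECK, in which the promoter of *Slc26a5* (prestin), a gene of OHCs, drives a human DT receptor, so that DT removes the cells that carry it. All groups were 5 weeks old and had the C57BL/6J background, which the labels write as B6J. The 2 treated groups received DT at 50 μg/kg 7 days before the cochleae were taken, and no agent is named for the other 2 groups.

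The study chose 1 founder line, #38, for its later experiments; the line used for the arrays is not stated with them. A number of 8 (4 females and 4 males) is given per group, without saying whether it counts cochleae or mice, and the labels call the sexes pooled. Since each group was 1 array and the arrays lay at different positions of 1 slide, group and array position cannot be told apart, and no p-value was calculated. In whole-cochlea RNA, fewer cells of a type and less RNA per cell cannot be told apart.

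The stria vascularis is the epithelium of the lateral wall that secretes potassium into the endolymph and generates the endocochlear potential on which hair cells depend. Its marginal cells take up potassium through the Na-K-2Cl cotransporter and the sodium pump, return chloride through channels that contain barttin, and release potassium through the KCNQ1 and KCNE1 channel. Intermediate cells, which are melanocytes, carry the KCNJ10 channel, basal cells seal the epithelium with claudin 11, and spindle and root cells of the lateral wall exchange anions through pendrin.

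The probes were 60 bases long, and their positions below are those that the array design gives on mouse build mm9. The exon or untranslated region that each probe falls in was not annotated here. The motif of a polyadenylation signal is AATAAA or its variant ATTAAA. Either form was present on the probe strand in 9 of the 11 probes, against 16.7% of all probes on the array. Only the letters were matched, and whether they act as a signal was not tested. AATAAA alone was in 8 of the 11 probes and in 12.6% of all probes, and ATTAAA was in 2 of the 11 and in 4.56% of all. The stretches of 30 bases around the motif are given below, and the capitals mark the motif.

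Kcnq1, chr7:150612887-150612946 and chr7:150612896-150612955: gagacttttccaAATAAAgttgggacgtcc
Kcne1, chr16:92346251-92346310: tataaaacaatAATAAAgaagatttaaata
Atp1b2, chr11:69413253-69413312: agggtaaagtacAATAAActgagagcgatt
Bsnd, chr4:106156065-106156124: accaggggatgaAATAAAaaagttttttaa
Esrrb, chr12:87862509-87862568: catgtatctgaaatctAATAAAtaaggaaa
Kcnj10, chr1:174304062-174304121: tctacacgctgcATTAAAgactaaaccagg
Cldn11, chr3:31062922-31062981: atatgcAATAAAtaatagtacgaagattat

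The pair of *Kcnq1* probes shared 51 bases and the same motif, so they are close to 1 measurement. The probe of *Slc26a4* (chr12:32204766-32204825) and the second *Esrrb* probe (chr12:87856069-87856128) held neither form of the motif. The *Slc12a2* probe, at chr18:58106416-58106475, held AATAAA, and its stretch is not reported here. Each probe had 1 spot on each array.

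Signals are given as log2 of the intensity after division by the 75th percentile of the array, so that 0 stands for that percentile. Of the 11 probes, 10 passed the scanner software's flag for a signal well above background on every array, and the second *Esrrb* probe passed it on none and has no fold change. For genes with several probes, the brightest was used. Spots of probes printed repeatedly differed by a median SD of 0.061 to 0.071 on the log2 scale within an array. The error that the scanner software assigned to a spot of the 9 genes was 10.0% to 14.3% of its intensity, which gave 0.20 to 0.29 for the log2 ratio of a pair of arrays. The scanner software's error was close to 10.0% for every gene but *Kcne1*. Both errors cover the spot and not the animals. A ratio called larger than its error exceeds that error itself, which is not a confidence limit.

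None of the 9 genes differed by 2-fold or more between DT-treated *Prestin*-*hDTR* mice and any other group. Of all genes detected in a comparison, 4.16% did so against wild-type, 3.47% against DT-treated wild-type and 4.13% against untreated *Prestin*-*hDTR* mice. All 9 had a higher signal than in either untreated group. The share of all genes with this order was not counted. The median log2 ratio of all genes was -0.026 over wild-type and 0.0050 over untreated *Prestin*-*hDTR* mice. Of the 9, 6 were higher than in all 3 other groups, as 33.5% of the 18248 genes well above background on every array were. No member was lower than in all 3 other groups, where 35.0% of these genes were. The 6 higher genes were *Slc12a2*, *Atp1b2*, *Bsnd*, *Kcnj10*, *Cldn11* and *Slc26a4*. The other 3, *Kcnq1*, *Kcne1* and *Esrrb*, were highest in DT-treated wild-type mice.

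**Figure D1:**
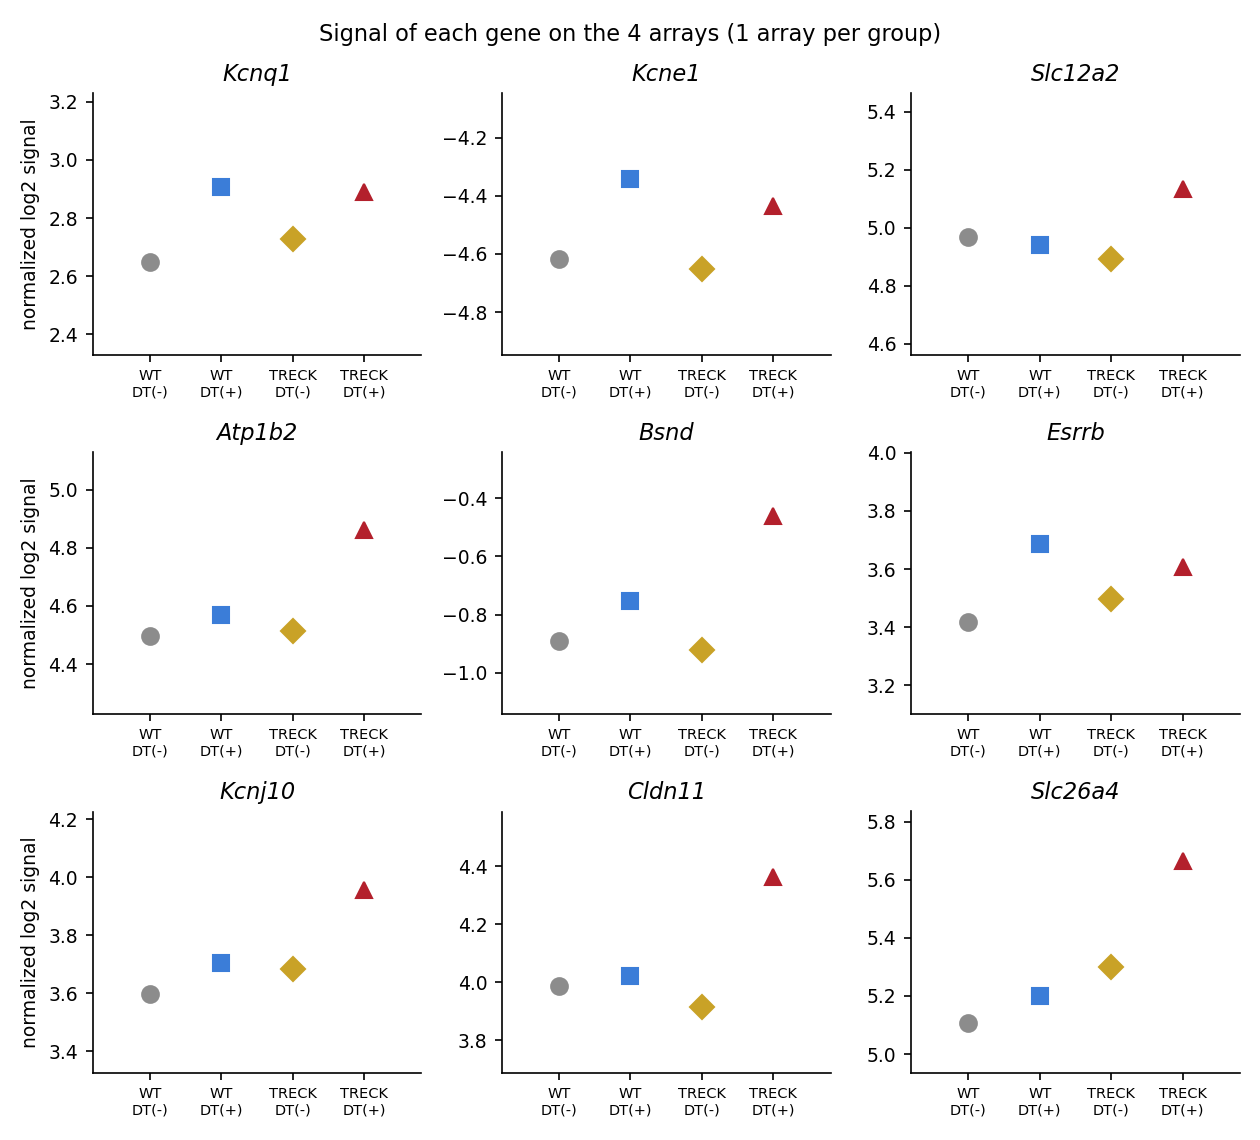
Normalized log2 signal of the 9 genes (y axis, which spans 0.9 in every panel) on the 4 arrays (x axis, with TRECK for OHC-TRECK, the *Prestin*-*hDTR* line), 1 point per array and no error bars. The DT-treated *Prestin*-*hDTR* array (triangle) was the highest in 6 panels, and the DT-treated wild-type array (square) was the highest for *Kcnq1*, *Kcne1* and *Esrrb*.

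Among the genes of the marginal cell, *Kcnq1* and *Kcne1* encode the pore and the accessory subunit of the channel that secretes potassium. The signal of *Kcnq1* was 2.65 in wild-type mice without DT and 2.91 with DT, and 2.73 in *Prestin*-*hDTR* without DT and 2.89 with DT; the 4 signals of every gene below follow this order. Both DT-treated arrays were above both untreated arrays and differed from each other by 0.02. The fold of DT-treated *Prestin*-*hDTR* was 1.18 over wild-type, 1.12 over *Prestin*-*hDTR* and 0.989 over DT-treated wild-type mice. Only the ratio over wild-type was larger than its error. On the second, overlapping probe of *Kcnq1* the signals were 2.35, 2.64, 2.48 and 2.71 in the same order of groups. There the DT-treated *Prestin*-*hDTR* array was the highest, by 1.05-fold over DT-treated wild-type, so the order of the 2 treated arrays depended on the probe.

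*Kcne1* was dim, with signals of -4.62, -4.34, -4.65 and -4.43 in the order of groups above. The intensities behind them were 111, 156, 120 and 144 units of the scanner. Again, both DT-treated arrays lay above both untreated arrays. The folds of DT-treated *Prestin*-*hDTR* were 1.13 over wild-type and 1.16 over *Prestin*-*hDTR*, and 0.937 over DT-treated wild-type mice, and each of these ratios was smaller than its error. Its probe had the lowest GC content of the 11, at 23.3%, which only 0.682% of all probes on the array matched or undercut.

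*Slc12a2* encodes the Na-K-2Cl cotransporter NKCC1 that loads marginal cells with potassium. Its signals were 4.97, 4.94, 4.89 and 5.13. The 3 other arrays lay within 0.08 of each other, and DT-treated *Prestin*-*hDTR* was above the highest of them by 0.16. The folds were 1.12 over wild-type, 1.14 over DT-treated wild-type and 1.18 over untreated *Prestin*-*hDTR* mice. Only the last of these ratios was larger than its error.

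For *Atp1b2*, a beta subunit of the sodium pump, the signals were 4.50, 4.57, 4.51 and 4.86. The 3 other arrays spanned 0.07, and the DT-treated *Prestin*-*hDTR* array stood 0.29 above the highest of them. This corresponded to 1.29-fold over wild-type, 1.22-fold over DT-treated wild-type and 1.27-fold over *Prestin*-*hDTR* mice.

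*Bsnd* encodes barttin, an accessory subunit of chloride channels. It was measured at -0.89, -0.75, -0.92 and -0.46. The DT-treated *Prestin*-*hDTR* array was again the highest, and the DT-treated wild-type array followed. The folds were 1.35 over wild-type, 1.22 over DT-treated wild-type and 1.38 over *Prestin*-*hDTR* mice.

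*Esrrb*, a nuclear receptor needed for the identity of marginal cells, had signals of 3.42, 3.69, 3.50 and 3.61. As for the potassium channel subunits, both DT-treated arrays were above both untreated ones and the wild-type one was the higher of them. DT-treated *Prestin*-*hDTR* mice had 1.14-fold the signal of wild-type and 1.08-fold that of *Prestin*-*hDTR* mice, and 0.948 of that of DT-treated wild-type mice. All 3 ratios were smaller than their error. The core motif bound by this receptor family, AAGGTCA, was searched on both strands of RefSeq promoter windows (build GRCm38.p6, 250 bases before to 50 after the start), which were at hand for 4 of the 9 genes (*Kcnj10*, *Cldn11*, *Slc26a4* and *Esrrb*). None of these windows held it, and 4.72% of all windows did. The longer form TCAAGGTCA, which contains the core motif, was also in none of them, and in 0.423% of all windows.

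Outside the marginal cells, *Kcnj10* encodes the KCNJ10 channel (Kir4.1) of intermediate cells. Its signals were 3.60, 3.70, 3.68 and 3.95. The last was above the highest of the others by 0.25, while the others spanned 0.11. The folds over them were 1.28, 1.19 and 1.21.

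*Cldn11*, the claudin of the basal cell tight junctions, was measured at 3.99, 4.02, 3.91 and 4.36. Here too the 3 other arrays spanned 0.11, and DT-treated *Prestin*-*hDTR* stood 0.34 above them. Its folds were 1.30 over wild-type, 1.27 over DT-treated wild-type and 1.37 over *Prestin*-*hDTR* mice.

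*Slc26a4* encodes pendrin, an exchanger of chloride and bicarbonate. It had signals of 5.11, 5.20, 5.30 and 5.66, the widest range of the 9 genes at 0.56. The untreated *Prestin*-*hDTR* array was also above both wild-type arrays. The folds of DT-treated *Prestin*-*hDTR* were 1.47 over wild-type, 1.38 over DT-treated wild-type and 1.29 over *Prestin*-*hDTR* mice.

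**Figure D2:**
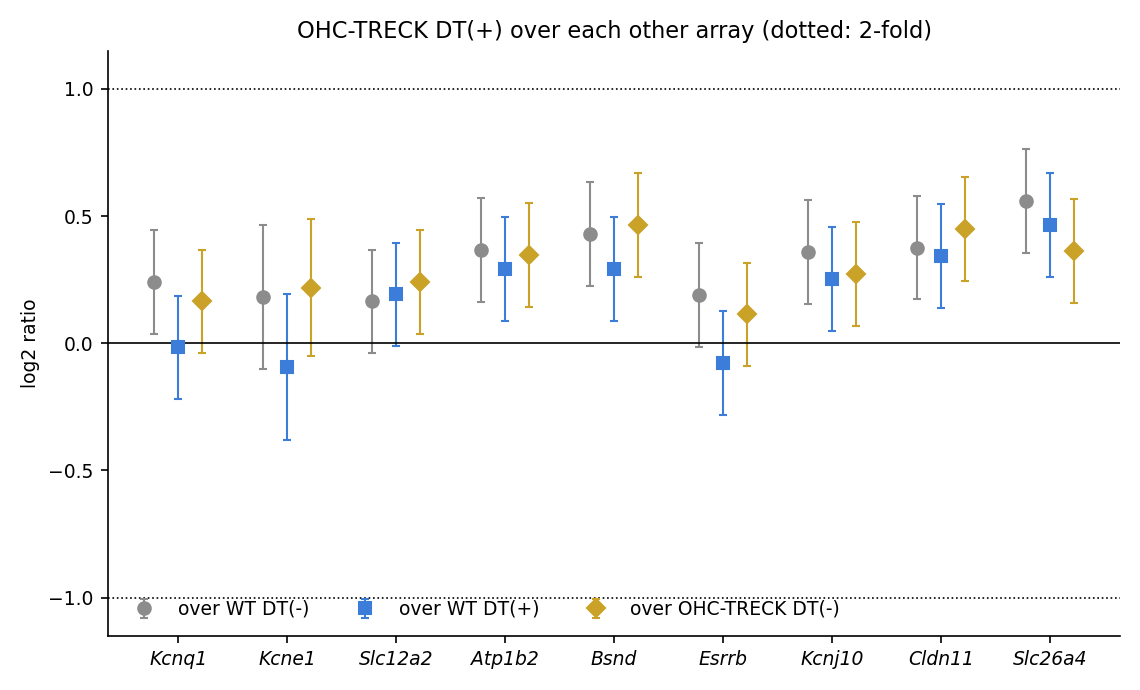
Log2 ratio (y axis) of DT-treated *Prestin*-*hDTR*, labelled OHC-TRECK DT(+), over each other array for the 9 genes (x axis). Bars extend in each direction by the error of the ratio from the scanner software's error of both spots. They are not a confidence limit, and dotted lines mark 2-fold. All points lie between the dotted lines, 24 of 27 are above 0, and for 5 genes (*Atp1b2*, *Bsnd*, *Kcnj10*, *Cldn11* and *Slc26a4*) no bar reaches 0. The shares of all genes for these counts were not calculated.

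The median log2 ratio of the 9 genes was 0.36 over wild-type (range 0.16 to 0.56), where the median of all genes was -0.026. Over DT-treated wild-type it was 0.25 (range -0.09 to 0.47), against 0.0098 for all genes. Over *Prestin*-*hDTR* it was 0.27 (range 0.11 to 0.46), against 0.0050 for all genes.

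Among the 7 well-expressed members (a mean log2 signal of 2 or more, which 3980 genes had), 5 were higher than in all 3 others, against 35.2% of well-expressed genes. With a margin of 0.2 or more on the log2 scale, a limit chosen after the values were seen, 5 of 9 were higher (*Atp1b2*, *Bsnd*, *Kcnj10*, *Cldn11* and *Slc26a4*), against 9.51% of genes. Among well-expressed genes this margin was passed by 4 of the 7 members and by 7.01% of all. In all 6 members that were highest in DT-treated *Prestin*-*hDTR*, the margin was wider than the range among the other 3 arrays, as it was in 15.8% of the 18248 genes. The 3 comparisons share the DT-treated *Prestin*-*hDTR* array, so a high spot there raises all of them together.

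**Figure D3:**
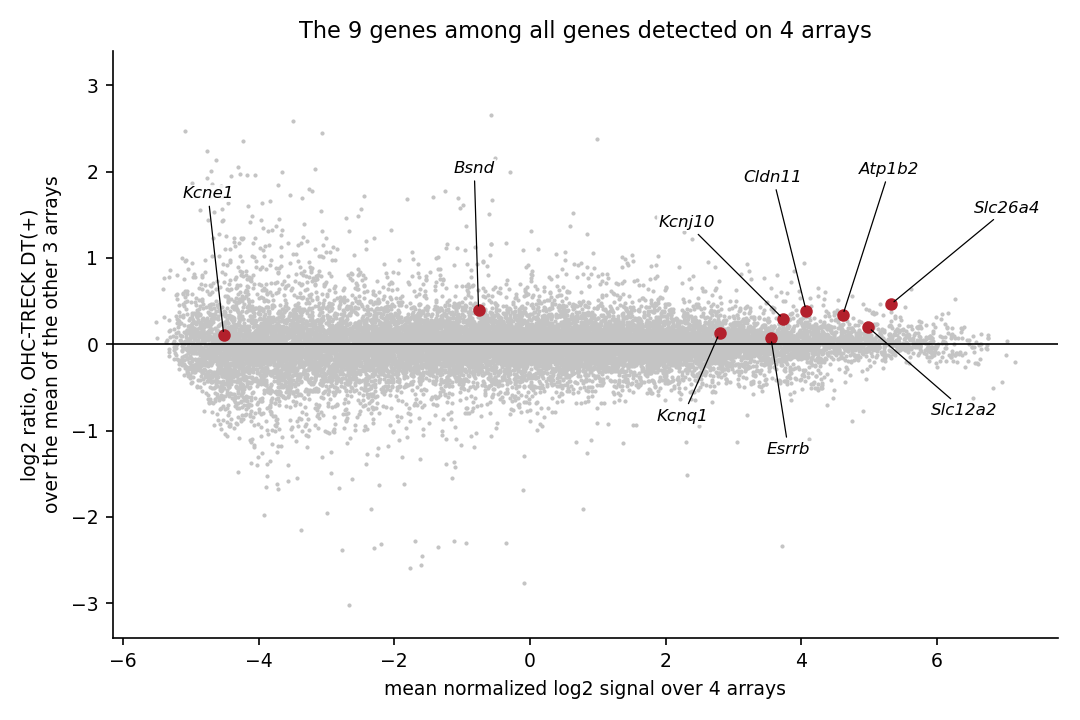
Log2 ratio of DT-treated *Prestin*-*hDTR*, labelled OHC-TRECK DT(+), over the mean of the other 3 arrays (y axis) against mean normalized log2 signal (x axis) for the 18248 genes well above background on all arrays (grey) and the 9 genes (red). The 9 genes lie from 0.08 (*Esrrb*) to 0.46 (*Slc26a4*), within the cloud of all genes, which is wider at low signals.

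The members were then compared between the control groups. DT-treated wild-type exceeded wild-type mice in 8 of 9 genes, with a median log2 ratio of 0.11 against -0.031 for all genes, and *Slc12a2* was lower by 0.03. The largest of these ratios were those of *Kcne1* (0.28), *Esrrb* (0.27) and *Kcnq1* (0.26). *Prestin*-*hDTR* exceeded wild-type mice in 5 of 9 genes, with a median of 0.018 against -0.013, and the largest ratio was that of *Slc26a4* (0.19). Both DT-treated arrays were above both untreated arrays in 7 of the 9 genes, all but *Slc12a2* and *Slc26a4*, where 14.7% of all genes showed this order. Among well-expressed genes it was shown by 5 of 7 members and 8.27% of all. In *Kcnj10*, *Cldn11* and *Atp1b2* it rested on DT-treated wild-type (3.70, 4.02 and 4.57) exceeding the higher untreated array (3.68, 3.99 and 4.51). These gaps were smaller than the spread of repeated spots. This order was looked at after the values were seen, and it separates DT from no DT in both genotypes with 1 array each. Markers of other cell types also shifted with DT: the median log2 ratio of DT-treated to untreated mice was 1.99 in wild-type and 0.63 in *Prestin*-*hDTR* for 10 erythroid markers, 0.75 and 0.73 for 10 neutrophil markers, and -0.52 and -0.10 for 8 Schwann cell and myelin markers. Their part in the order of the 7 genes was not tested.

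The other genes of these pathways were described from 6 lists with 82 genes, of which 76 were measured. Compared with all 3 other groups, DT-treated *Prestin*-*hDTR* was the highest in 34 of the 74 that were well above background on all arrays and the lowest in 20, with a margin of 0.2 or more above the others in 17. Over all genes these shares were 33.5%, 35.0% and 9.51%, and they are the background for the counts of each list below. In what follows, a ratio is the log2 ratio of DT-treated *Prestin*-*hDTR* to the mean of the other 3 arrays, which had a median of -0.0042 over all genes and 0.29 over the 9 genes.

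Of 17 genes for potassium entry and pumping, 9 were higher than in all 3 other groups and 1 was lower, with a median ratio of 0.10. The highest were *Fxyd2* (0.68), a regulator of the sodium pump, and *Kcnj16* (0.59), whose Kir5.1 subunit assembles with that of *Kcnj10*. *Kcnj16* had signals of 3.64, 3.60, 3.69 and 4.24, so that only the DT-treated *Prestin*-*hDTR* array stood apart, as for *Kcnj10*. The beta subunit *Atp1b1*, named after its values were seen, had 5.24, 5.17, 5.16 and 5.22 and was not the highest there, unlike *Atp1b2*.

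Among 10 measured genes of the gap junctions and connective tissue of the lateral wall, 6 were higher and 3 lower than in all 3 other groups, with a median ratio of 0.12. *Car3*, a carbonic anhydrase, was at 0.64 and the transcription factor *Tbx18* at 0.37, while the connexin *Gja1* was at -0.30 and the transporter *Slc4a11* at -0.26. Of 12 measured genes for acid, bicarbonate and water transport, 7 were higher and 3 lower, with a median of 0.21. The carbonic anhydrases *Car13* (0.81) and *Car2* (0.62) were the highest, and the water channel *Aqp4* (-0.57) and the bicarbonate cotransporter *Slc4a4* (-0.43) the lowest. Of 10 other genes of marginal and basal cells, 8 were higher and 1 lower, with a median of 0.17. They ranged from *Cldn9* (0.75), a claudin, and the protease *Tmprss3* (0.61) to *Lrp2* (-0.01), an endocytic receptor of marginal cells, and the junction protein *Tjp1* (-0.10).

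Potassium channels of hair cells and other cochlear cells went the other way, with 6 lower and 1 higher than in all 3 other groups among the 10 that were well above background on all arrays, and a median of -0.16 over the 11 measured. *Kcna10*, at -0.81, had signals of -0.52, 0.04, 0.22 and -0.90, and differed by 2-fold or more from *Prestin*-*hDTR* mice. The highest of this list were *Kcnk1* (0.08) and *Kcnn2* (0.06) among the genes well above background on all arrays. Among 15 relatives of the 9 genes in their families detected in this way, 6 were lower and 3 higher, where 35.0% and 33.5% of all genes were, and the median over the 16 measured was -0.04. *Kcne4*, a relative of *Kcne1*, had signals of -3.19, -3.47, -3.31 and -2.09. *Kcnj15*, a relative of *Kcnj10*, had -3.27, -3.31, -3.44 and -2.19. Both were dim, and in both the DT-treated *Prestin*-*hDTR* array exceeded each other array by at least 2-fold, which it did in none of the 9 genes. The lowest relatives were *Slc12a5* (-0.58) and *Cldn10* (-0.49).

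**Figure D4:**
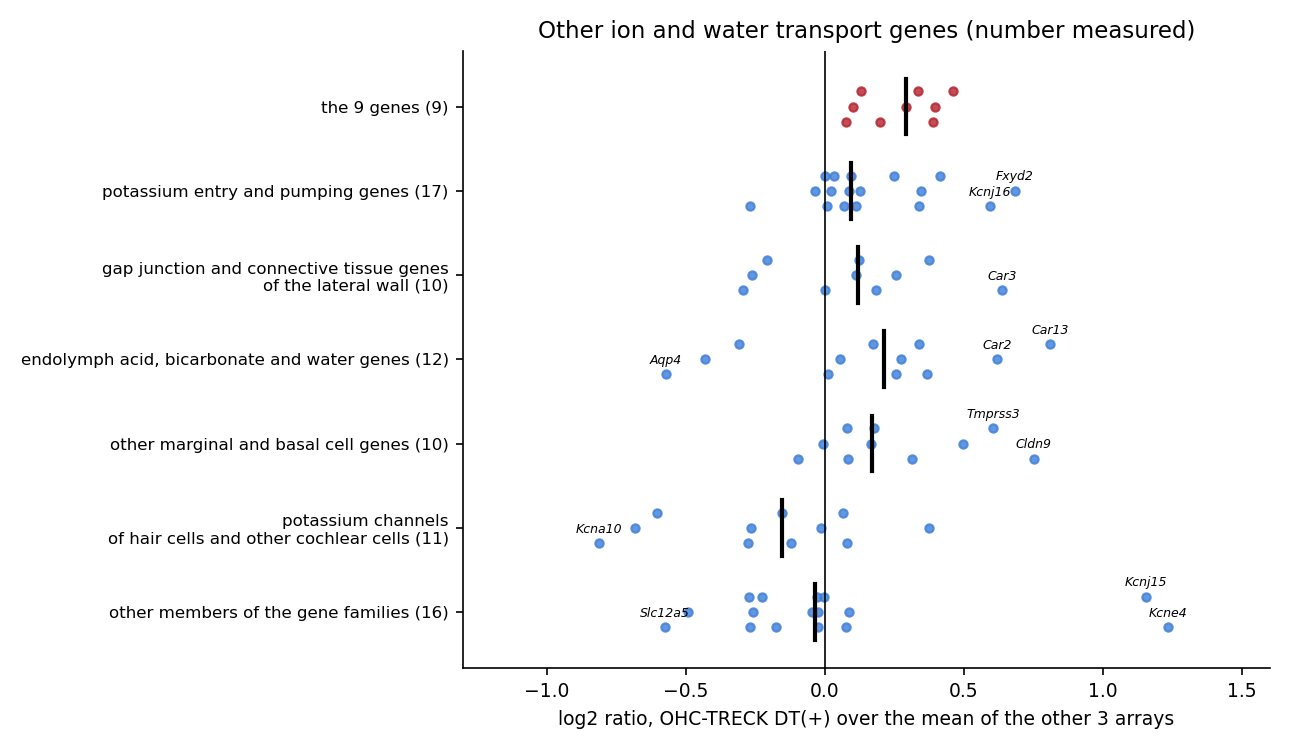
Log2 ratio of DT-treated *Prestin*-*hDTR*, labelled OHC-TRECK DT(+), over the mean of the other 3 arrays (x axis) for the 9 genes (red) and the measured genes of 6 lists (blue), 1 point per gene, with black bars at the medians. All 9 genes are above 0, at a median of 0.29, while the list medians run from -0.16 for potassium channels of hair cells and other cells to 0.21 for acid, bicarbonate and water genes.

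Markers of other cell types also differed between the arrays. The 11 OHC markers, with their normalized levels summed on the linear scale, were at 27.7, 26.3, 28.1 and 7.47. Of these markers, 7 were at least 2-fold lower on the last array than on each other one. The share of all genes this much lower was not counted. Each of the markers so counted is among the genes that the study reported as lowered on the same arrays. Their count is therefore not an independent result. On the log2 scale *Ocm*, a calcium-binding protein of OHCs, was at 1.97 on the last array against 4.21 to 4.36 on the others. *Strc* was at -4.93 against -2.03 to -1.83, and *Slc26a5* was not well above background on the last array. Macrophage markers had summed levels of 27.8, 24.7, 22.5 and 35.2, and 11 of 12 measured were highest in DT-treated *Prestin*-*hDTR*. The melanocyte markers, which belong to the intermediate cells that carry *Kcnj10*, had sums of 83.7, 80.8, 78.6 and 90.8, with 7 of the 11 that were well above background on all arrays highest and 2 lowest there, a median ratio of 0.21 and single genes from 0.95 (*Tyr*) to -1.06 (*Trpm1*). Most of each sum came from the brightest melanocyte marker, with log2 signals of 5.98, 5.87, 5.85 and 6.03. For neutrophil and for erythroid markers, the direction of the difference depended on the array that DT-treated *Prestin*-*hDTR* was compared with. For neutrophil markers the median log2 ratio of DT-treated *Prestin*-*hDTR* was -0.51 over wild-type, -1.43 over DT-treated wild-type and 0.73 over *Prestin*-*hDTR* mice, with summed levels of 38.7, 61.0, 14.0 and 24.1. For erythroid markers these medians were 0.52, -1.28 and 0.63. Against the mean of the other 3 arrays, bone markers had a median ratio of -0.44, neutrophil markers -0.37, inner hair cell markers -0.44, skeletal muscle markers -0.24, Schwann cell and myelin markers -0.21, spiral ganglion neuron markers -0.14, supporting cell markers 0.05, blood vessel markers 0.04 and erythroid markers 0.11. The 5 inner hair cell markers ran from -0.59 to 0.52, and 4 of them were well above background on all arrays. The study found no significant change in the number of inner hair cells, nor in a marker of them by qRT-PCR. Of the 5 measured skeletal muscle markers, 3 were well above background on all arrays. All 12 measured macrophage markers and 11 or 12 of the 12 melanocyte markers were well above background on each array, and 10 of 11 OHC markers were in DT-treated *Prestin*-*hDTR* mice. The part of these shifts in the ratios of the 9 genes was not tested.

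**Figure D5:**
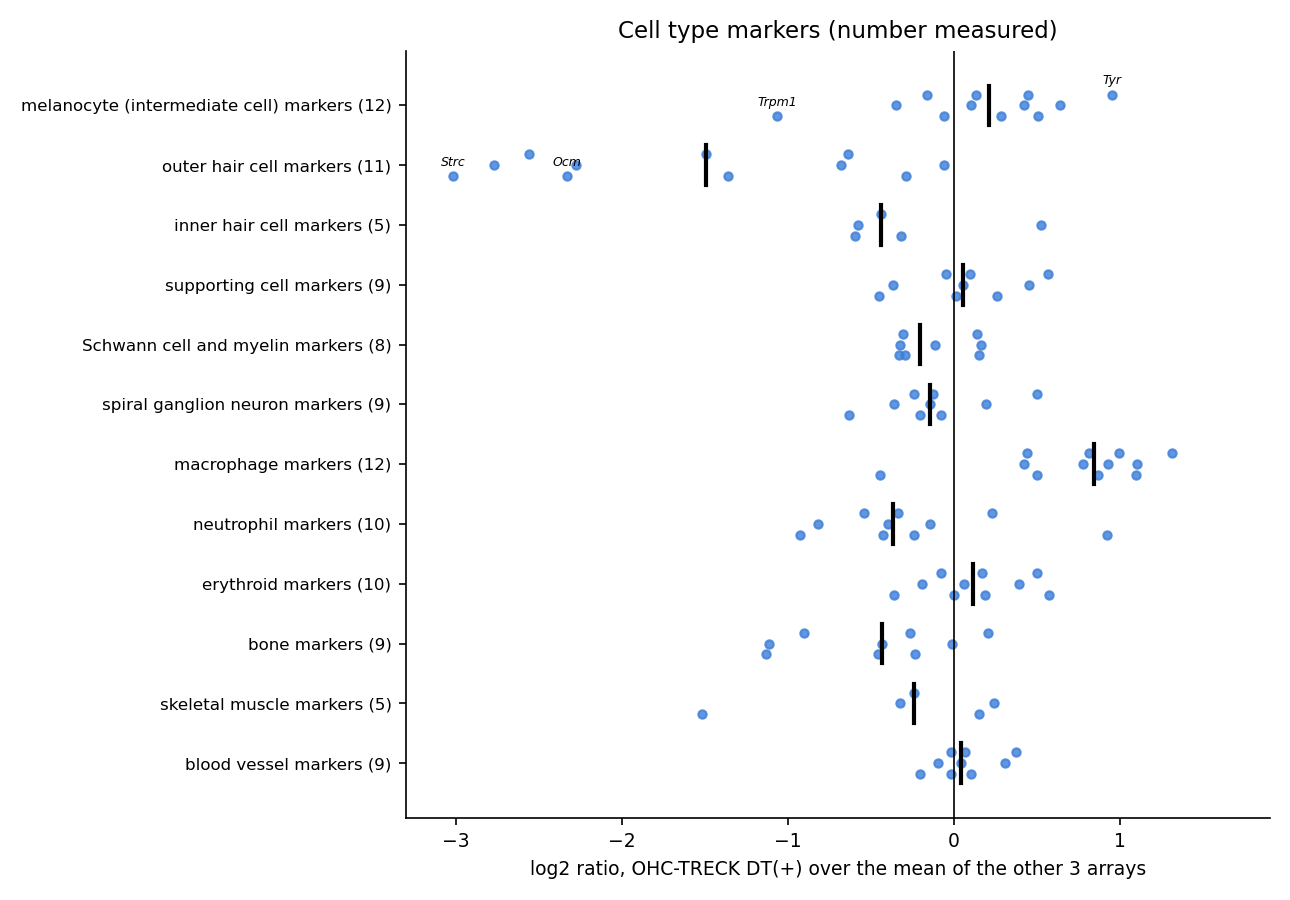
Log2 ratio of DT-treated *Prestin*-*hDTR*, labelled OHC-TRECK DT(+), over the mean of the other 3 arrays (x axis) for measured marker genes of 12 cell types, 1 point per gene, with black bars at the medians; *Ocm*, *Strc*, *Tyr* and *Trpm1* are named. OHC markers have a median of -1.49 and macrophage markers of 0.84, and the melanocyte median is 0.21.

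The genes whose pattern over the 4 arrays was most like that of a member were sought for the 3 members with the widest range, by the distance between signals centred on their own mean, among the 18248 genes well above background on all arrays. For *Slc26a4* they were *Ttc30a2* (distance 0.020), a probe without a gene symbol (0.022) and *Prr30* (0.033). For *Bsnd* they were *Cd300ld* (0.021), *Il4ra* (0.028) and *Klf4* (0.038). For *Cldn11* they were *Sorcs2* (0.010), *C2* (0.019) and *Cnksr1* (0.019). Within a distance of 0.1 there were 111, 113 and 207 genes for *Slc26a4*, *Bsnd* and *Cldn11*.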

How the data were processed

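Labelled cRNA of 4 cochlear RNA pools was hybridised to 1-colour arrays (Cy3), which the authors read with Agilent Feature Extraction 11.5.1.1. The deposited unit is intensity on a linear scale, with background subtracted and spatial trends removed, not scaled between arrays. A second table deposited by the authors gives this intensity after scaling by a single factor for each array. From the scanner intensity, control and outlier spots were removed, spots of a probe averaged, and arrays divided by their 75th percentile and brought to log2, as in the study's methods, whose further baseline step to the median of all samples was not applied because it cancels in ratios between arrays. Probes not well above background were raised to the lowest signal of detected probes on the array, unless already higher. For each gene the brightest detected probe was taken, and a gene was compared between arrays if detected on either. Calculations used Python 3.11.15, pandas 2.3.3 and limma 3.58.1 (normexp, offset 50), and were tested on simulated data. With 1 array per group there was no test. Of the probes, 62.2% to 70.6% per array were flagged as well above background and none as saturated.

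The members, lists, tests and alternatives were chosen with earlier results of these data known. Named genes are the members, list genes at 2-fold or more, the 2 highest and 2 lowest of each list, *Slc26a5*, *Ocm* and *Strc*, and the 3 genes nearest in pattern to each of 3 members; some genes that the rule picks are not reported here. The 8 alternatives were other scaling (4), normexp, averaged probes, and another or no filter.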

Additional observations from a re-analysis of the deposited data

Results flagged for a closer look

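Genes are given here where DT moved the signal in opposite directions in the 2 genotypes, taken as the DT effect in *Prestin*-*hDTR* minus that in wild-type mice on the log2 scale. With 1 array per group the differences were not tested. Among the 9 genes this held for *Slc12a2* only, with a difference of 0.27 from an effect of -0.03 in wild-type and 0.24 in *Prestin*-*hDTR* mice, the first of which is smaller than the spread of repeated spots.

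Among the list genes named, the difference was 1.49 for *Kcne4* (-0.28 and 1.22), 1.30 for *Kcnj15* (-0.04 and 1.26), 0.84 for *Fxyd2* (-0.16 and 0.68) and 0.58 for *Kcnj16* (-0.04 and 0.55). It was -1.68 for *Kcna10* (0.57 and -1.12) and -0.46 for *Slc4a11* (0.10 and -0.36). Smaller differences were seen for *Kcnn2* (-0.15), *Tjp1* (-0.14), *Atp1b1* (0.14) and *Kcnk1* (0.13). In wild-type mice the effects of *Kcnj15*, *Kcnj16*, *Kcnn2*, *Tjp1*, *Slc4a11* (0.098), *Atp1b1* and *Kcnk1* were smaller than the spread of 2 repeated spots (0.101). The same held for *Tjp1*, *Atp1b1* and *Kcnk1* in *Prestin*-*hDTR* mice. The direction of these effects is not settled. Among the markers named, the difference was -3.26 for *Strc* (0.16 and -3.10) and -0.89 for *Trpm1* (0.16 and -0.73). For *Slc26a5* it was -0.81 or lower, since its signal in DT-treated *Prestin*-*hDTR* mice was set to the background limit.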

How the results depend on the processing

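No paired analysis was possible because each group was 1 array. Under the 8 alternatives, no member changed by 2-fold in any comparison and the largest log2 ratio of a member was 0.62 (1.54-fold). Members higher in DT-treated *Prestin*-*hDTR* than in all 3 other groups numbered 6 or 7, the latter when arrays were scaled to their median or the probes of a gene averaged, which turned the ratio of *Kcnq1* over DT-treated wild-type to 0.02 and 0.03; no other ratio of a member changed its sign. The count with a margin of 0.2 was 4 (quantile normalization) to 6 (median scaling), and both DT-treated arrays were above both untreated arrays in 7 or 8. The medians ranged from 0.35 to 0.42 over wild-type, 0.19 to 0.28 over DT-treated wild-type and 0.25 to 0.29 over *Prestin*-*hDTR*. Of 216 ratios of single members, 4 moved by more than 0.10, the spread of 2 repeated spots. The number of arrays limits the precision, since the spread between animals was not measured.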
